A study of Bos taurus with 42 samples.

Results

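The genes described here are *FGA* (ENSBTAG00000001638) and *FGG* (ENSBTAG00000006745), which encode the alpha and gamma chains of fibrinogen, *SERPINC1* (ENSBTAG00000004362), which encodes antithrombin, and *VTN* (ENSBTAG00000016151), which encodes vitronectin. They are the 4 rows, of 22664 in the count table, whose Ensembl identifiers the study pairs with these symbols. Each was measured by RNA-Seq in the liver, cerebrum and muscle of 14 bovine fetuses collected at day 50 of gestation, giving 42 libraries. The dams were Angus-cross heifers inseminated with semen of a common sire. From breeding onward, 7 dams were fed to meet 100% of requirement (CON) and 7 were given 60% of the CON delivery (RES). Of the CON fetuses 6 were male and 1 was female, and of the RES fetuses 5 were male and 2 were female. Total counts were 6658218 to 12741299 per liver library, 4145093 to 7576159 per cerebrum library and 5384018 to 7592149 per muscle library.

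Fibrinogen is a plasma protein made by hepatocytes from alpha, beta and gamma chains, and thrombin cleaves it to form the fibrin of a clot. Antithrombin is a serpin that inhibits thrombin and activated factor X, an action that heparin accelerates. Vitronectin is an adhesive plasma glycoprotein that binds integrins and stabilizes plasminogen activator inhibitor 1, and like the others it is secreted mainly by the liver. The fetal liver at this stage is also a site of blood formation, so a liver library holds RNA of blood cells beside that of hepatocytes. In such bulk samples, fewer cells of a type and less RNA per cell cannot be told apart.

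In the bovine RefSeq annotation (ARS-UCD2.0, used here for gene order only), *FGG*, *FGA* and *FGB* are consecutive on chromosome 17. *SERPINC1* lies on chromosome 16 between *ZBTB37* and *RC3H1*, and *VTN* lies on chromosome 19 between *SEBOX* and *SARM1*. No other gene of that annotation overlapped any of the 4. The beta chain gene *FGB* was not paired with an identifier and was not analysed here.

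The tissue labels were checked against marker genes before the 4 genes were compared. The median level of albumin (*ALB*) was 14113 CPM (counts scaled to the library total) in liver, against 6.07 in cerebrum and 4.69 in muscle. *NEUROD6*, a cortical neuron gene, had a median of 129 CPM in cerebrum and 0 in liver, and the myogenic gene *MYOG* had a median of 158 CPM in muscle and 0 in both other tissues. The cerebrum library of RES fetus 1 stood apart. Its 4 skeletal muscle markers summed to 199 CPM, against 2.05 to 17.3 in the other 13 cerebrum libraries, and its 7 erythroid markers summed to 287 CPM, against 7.22 to 122. Mitochondrial genes took 14.7% of its counts, against 2.73% to 6.89%. Its 4 cerebral neuron markers summed to 163 CPM, within the 139 to 679 CPM of the other 13.

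The liver libraries differed in the share of their counts on 12 mitochondrially encoded genes. This share was 67.7% in RES fetus 1, 44.9% in CON fetus 2, 35.6% in RES fetus 6 and 30.5% in RES fetus 33, and it lay between 4.04% and 16.4% in the other 10 livers. Of these 10 livers, 6 were CON and 4 were RES. Liver levels are therefore given as CPM scaled by the trimmed mean of M-values (TMM) within the tissue, which is computed across genes and is less affected by a few abundant genes than the total count. Cell type markers were summed as CPM of the counts outside these 12 genes. The 12 hepatocyte markers summed to 98637 in CON fetus 2 and to 242605, 196429 and 200002 in RES fetuses 1, 6 and 33, against 132461 to 256508 in the other 10. The 7 erythroid markers summed to 9965 in CON fetus 2 and to 7762, 8220 and 7825 in RES fetuses 1, 6 and 33, against 8083 to 12858. Single hepatocyte markers did not all follow their sum. On CPM of total counts, which include the 12 mitochondrial genes, the sum was 78271, 126445 and 139017 in RES fetuses 1, 6 and 33. It was 54301 in CON fetus 2 and 119731 to 246138 in the other 10. *AHSG* on that scale was at 8715, 10046 and 14526 in RES fetuses 1, 6 and 33, against 26084 to 77031 in the other 10. *SERPINA1* was at 41115, 60266 and 55764 in these RES fetuses, against 31630 to 57093. In CON fetus 2 the 2 genes were at 8384 and 22236.

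All 4 genes were abundant in every liver. They were listed among the liver-specific genes of the study, so the difference between tissues is given as a description without a test. The mean level over the 14 libraries of a tissue, on CPM scaled by TMM over the 42 libraries, was 2711 in liver, 0.785 in cerebrum and 0.319 in muscle for *FGA*. It was 1523, 0.559 and 0.136 for *FGG*, and 1504, 0.286 and 0.150 for *VTN*. *SERPINC1* was at 1116 in liver, 2.33 in cerebrum and 1.79 in muscle. The liver mean was thus 3453-fold the cerebrum mean for *FGA*, 2726-fold for *FGG* and 5253-fold for *VTN*, but 479-fold for *SERPINC1*. Against muscle the ratios were 8486-fold, 11172-fold, 10027-fold and 622-fold in the same order. Single libraries carried much of the trace means: without RES fetus 1 the ratios to cerebrum were 4720, 3917, 9219 and 536, and without RES fetus 70 those to muscle were 13876, 13386, 14499 and 615. The median library of cerebrum or muscle held 0 to 1.5 counts of *FGA*, *FGG* and *VTN*, under the 3 counts that a count of 0 allows, so no ratio of medians is given for them. For *SERPINC1* the ratio of medians was 513 to cerebrum and 586 to muscle. On total counts, without TMM factors, the ratios to cerebrum were 1713, 1440, 2457 and 224, and those to muscle were 3926, 5732, 4125 and 292, with *SERPINC1* lowest in both.

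**Figure D1:**
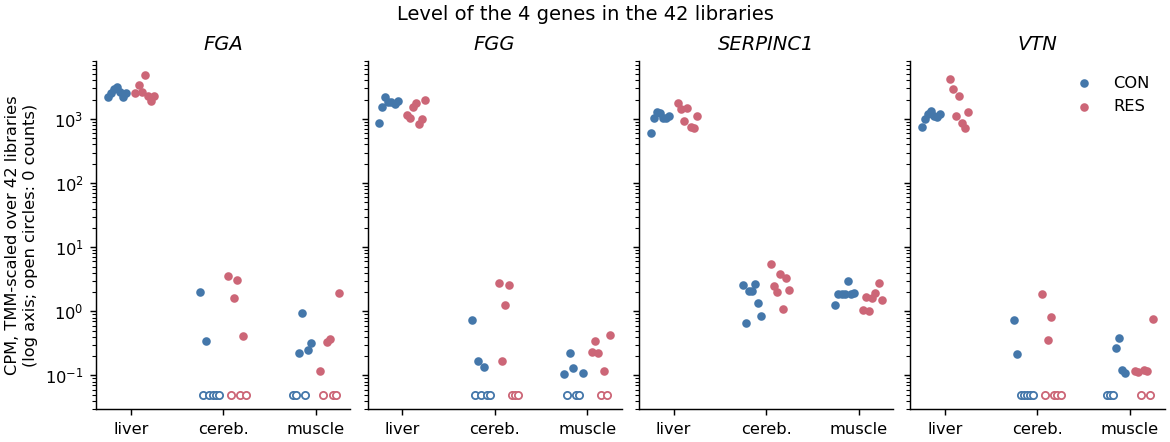
Level of each gene in CPM (TMM-scaled over 42 libraries, log axis) in every liver, cerebrum and muscle library, with CON in blue and RES in red, 7 libraries of each diet per tissue. Open circles are libraries with 0 counts, drawn at the foot of the axis. *SERPINC1* was counted in all 28 cerebrum and muscle libraries, whereas the other genes had libraries at 0 in both tissues.

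*FGA* encodes the chain whose N-terminal peptide is removed first when thrombin acts on fibrinogen. In CON livers its level was 1308 in fetus 2, 1462 in fetus 23, 1778 in fetus 46, 1854 in fetus 54, 1626 in fetus 68, 1328 in fetus 69 and 1551 in fetus 73 (CPM, TMM-scaled within liver). In RES livers it was 1546 in fetus 1, 1963 in fetus 6, 1546 in fetus 25, 2768 in fetus 33, 1401 in fetus 52, 1110 in fetus 55 and 1419 in fetus 70. The diets overlapped, with 2 RES livers above all CON livers and 1 below them. The means were 1558 ± 210 in CON and 1679 ± 543 in RES (SD, *n* = 7 each).

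*FGG* encodes the chain that carries cross-linking sites and part of the platelet binding surface of fibrinogen. Its CON levels were 520 in fetus 2, 898 in fetus 23, 1338 in fetus 46, 1108 in fetus 54, 1113 in fetus 68, 1031 in fetus 69 and 1152 in fetus 73. Its RES levels were 705 in fetus 1, 610 in fetus 6, 915 in fetus 25, 1040 in fetus 33, 517 in fetus 52, 586 in fetus 55 and 1256 in fetus 70. All CON livers except that of fetus 2 were at or above 898, whereas 4 of the 7 RES livers were at or below 705. The means were 1023 ± 258 in CON and 804 ± 274 in RES (SD, *n* = 7 each).

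*SERPINC1* had CON levels of 357 in fetus 2, 615 in fetus 23, 778 in fetus 46, 742 in fetus 54, 645 in fetus 68, 634 in fetus 69 and 674 in fetus 73. Its RES levels were 1080 in fetus 1, 839 in fetus 6, 545 in fetus 25, 843 in fetus 33, 462 in fetus 52, 432 in fetus 55 and 702 in fetus 70. RES fetuses 1, 6 and 33, the RES livers with the highest mitochondrial shares, exceeded every CON liver, while RES fetuses 25, 52 and 55 lay below every CON liver but that of fetus 2. The means were 635 ± 136 and 700 ± 237 (SD, *n* = 7 each). This order depended on the scaling: on CPM of total counts no RES liver exceeded every CON liver, RES fetuses 1, 6 and 33 were at 339, 625 and 681, and the means were 757 ± 246 in CON and 605 ± 161 in RES. The *FGA* means also changed order on that scale, to 1821 ± 466 in CON and 1542 ± 540 in RES (SD, *n* = 7 each).

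*VTN* had the widest spread of the 4 genes on the TMM scale. Its CON levels were 442 in fetus 2, 584 in fetus 23, 729 in fetus 46, 790 in fetus 54, 688 in fetus 68, 654 in fetus 69 and 715 in fetus 73. Its RES levels were 2537 in fetus 1, 1685 in fetus 6, 650 in fetus 25, 1335 in fetus 33, 532 in fetus 52, 430 in fetus 55 and 801 in fetus 70. The range in RES was 5.90-fold from lowest to highest, against 1.78-fold in CON, and 4 RES livers were above all CON livers while 1 was below them. The means were 657 ± 114 in CON and 1139 ± 765 in RES (SD, *n* = 7 each). On CPM of total counts the range was 2.31-fold in RES and 2.98-fold in CON, so the wider range in RES was not kept. RES fetus 1, whose total was 67.7% mitochondrial counts, was then at 796, within the CON range of 311 to 928. By total counts 3 RES livers were above all CON livers and none below, and the means were 779 ± 235 and 864 ± 255. The widest range over the 14 livers on that scale was that of *FGG* (7.68-fold, against 4.03-fold for *VTN*).

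**Figure D2:**
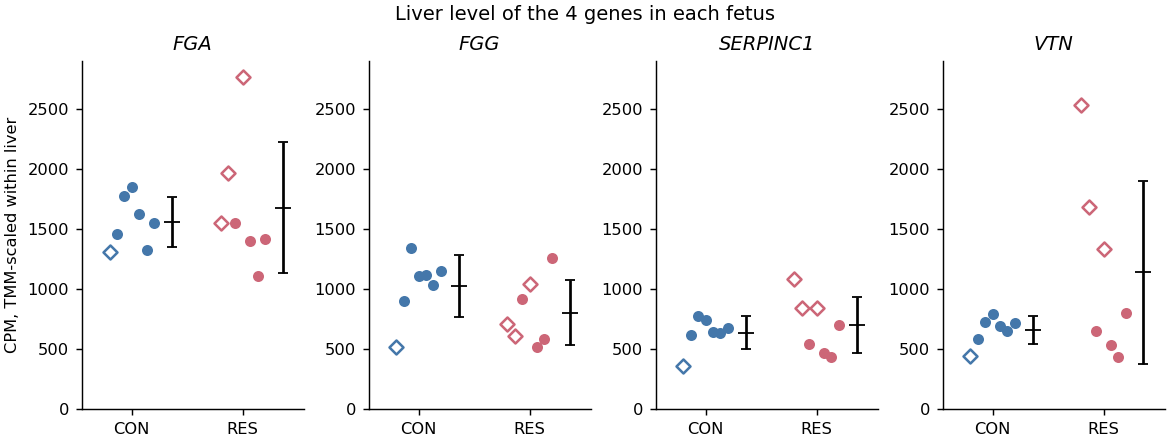
Level of each gene in the liver of each fetus (CPM, TMM-scaled within liver, linear axis from 0), with CON in blue and RES in red, and the mean ± SD of 7 fetuses in black. Open diamonds are the 4 livers with a mitochondrial share of at least 25%. For *VTN* the 3 RES diamonds, at 1335 to 2537, are the highest values, and the CON diamond, at 442, is the lowest of its diet.

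The liver levels were compared between diets with edgeR's quasi-likelihood test on all 13527 genes retained in liver, with fetal sex in the model and *p*-values adjusted by the Benjamini-Hochberg method. None of the 4 genes passed an adjusted *p* of 0.05, and neither did any other gene in this fit (0 of 13527, 0.0%). At an unadjusted *p* under 0.05 there were 3260 genes (24.1%), and DESeq2 called 86 genes (0.662%), none of them among the 4. The log2 fold change (RES against CON) was 0.80 for *VTN* (SE 0.32, edgeR adjusted *p* = 0.187). It was −0.39 for *FGG* (SE 0.24, edgeR adjusted *p* = 0.293), 0.16 for *SERPINC1* (SE 0.22, edgeR adjusted *p* = 0.628) and 0.13 for *FGA* (SE 0.19, edgeR adjusted *p* = 0.656). The median over all genes was −0.03, and the median absolute change was 0.35. *VTN* was thus the single gene of the 4 below the unadjusted threshold, which 24.1% of the liver genes also met. On total counts without TMM factors the median over all genes moved to −0.37, and the log2 fold change was −0.26 for *FGA*, −0.37 for *SERPINC1*, −0.81 for *FGG* and 0.15 for *VTN* (edgeR adjusted *p* between 0.390 and 0.754). Relative to that median *FGA* and *VTN* were higher, *FGG* was lower and *SERPINC1* was level with it.

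The direction of 3 of these differences depended on the livers with a high mitochondrial share. In the 10 livers with a share under 25% (6 CON, 4 RES), the log2 fold change of *VTN* was −0.21 (edgeR adjusted *p* = 0.690), that of *SERPINC1* was −0.37 (adjusted *p* = 0.633) and that of *FGA* was −0.20 (adjusted *p* = 0.678). *FGG* stayed lower in RES, at −0.52 (edgeR adjusted *p* = 0.633). With the log2 mitochondrial share as a covariate over all 14 livers, *VTN* was at 0.43 (edgeR adjusted *p* = 0.922) and *FGG* at −0.07 (adjusted *p* = 0.981). Leaving out RES fetus 1 alone gave 0.48 for *VTN* and 0.01 for *SERPINC1*. Leaving out CON fetus 2 alone gave 0.07 for *FGA* and 0.05 for *SERPINC1*, and leaving out RES fetus 33 gave −0.04 for *FGA*. The part of the mitochondrial share in these differences was not tested beyond these values.

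Ratios of counts within a library do not depend on how the library is scaled. The log2 ratio of *FGG* to *VTN* was 0.61 ± 0.20 in CON livers and −0.30 ± 0.99 in RES livers (SD, *n* = 7 each). It lay between 0.23 and 0.88 in CON and between −1.85 and 0.65 in RES, where 4 of the 7 livers were below all CON livers. The difference of −0.91 had *p* = 0.0192 in an exact two-sided permutation test over all splits of the 14 livers, and an adjusted *p* of 0.0717 over the 6 pairs of genes. The ratio of *SERPINC1* to *VTN* differed by −0.44 (exact permutation *p* = 0.0239, adjusted *p* = 0.0717) and that of *FGG* to *SERPINC1* by −0.47 (exact permutation *p* = 0.0390, adjusted *p* = 0.0781). None of the 6 passed the adjustment over all 14 livers. In the 11 male fetuses alone, 4 pairs did, with *FGG* to *VTN* at −1.24 (exact permutation *p* = 0.00649, adjusted *p* = 0.0195). In the 10 livers with a mitochondrial share under 25% none did, and *FGG* to *VTN* was at −0.29 (exact permutation *p* = 0.0286, adjusted *p* = 0.171). Without RES fetus 70 the adjusted *p* of that pair was 0.0192, without RES fetus 55 it was 0.0245 and without RES fetus 25 it was 0.0385 (exact permutation tests). Leaving out RES fetus 70 or RES fetus 25 also took the other 2 pairs past the threshold, with adjusted *p* of 0.0192 and 0.0385 for *FGG* to *SERPINC1* and 0.0236 and 0.0455 for *SERPINC1* to *VTN* (exact permutation tests). For the latter pair, leaving out RES fetus 55 gave an adjusted exact permutation *p* of 0.0245. RES fetuses 25, 55 and 70 had mitochondrial shares of 12.5%, 12.6% and 4.34%, against 30.5% to 67.7% in RES fetuses 1, 6 and 33. The males alone leave out RES fetuses 55 and 70. Each of these settings thus gave high-share livers a larger part of RES, and their role in the passes was not tested.

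The 2 fibrinogen chains did not keep a fixed ratio. The log2 ratio of *FGA* to *FGG* was 0.65 ± 0.33 in CON and 1.08 ± 0.51 in RES (SD, *n* = 7 each), with values from 0.37 to 1.33 in CON and from 0.18 to 1.69 in RES. The difference of 0.43 did not pass the test (exact permutation *p* = 0.0897, adjusted *p* = 0.135). It did among males (0.62, exact permutation *p* = 0.0216, adjusted *p* = 0.0325) and without RES fetus 70 (0.58, exact permutation *p* = 0.0152, adjusted *p* = 0.0236). Both settings leave out RES fetus 70, the RES liver with the lowest mitochondrial share (4.34%).

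Of the 6 ratios, 4 varied with the mitochondrial share of the liver library, a relation that was examined after the values had been seen. Over the 14 livers the log2 share was related to the *FGA* to *FGG* ratio (Pearson's *r* = 0.81, permutation *p* = 0.00055, adjusted over 10 relations 0.00275, Spearman's rho = 0.80, permutation *p* = 0.0009). Without the 2 livers of most extreme share (RES fetus 1 and CON fetus 2) *r* was 0.86. Within diets *r* was 0.96 in CON (exact permutation *p* = 0.00179) and 0.67 in RES (exact permutation *p* = 0.0982), and these were 0.88 without CON fetus 2 (exact permutation *p* = 0.0125) and 0.83 without RES fetus 1 (exact permutation *p* = 0.0458). The *FGG* to *VTN* ratio went the other way (*r* = −0.79, permutation *p* = 0.00043, adjusted 0.00275, rho = −0.86, permutation *p* = 0.00013), with −0.86 in CON and −0.89 in RES, and −0.80 without those 2 livers. Within CON this ratio had −0.56 without fetus 2 (exact permutation *p* = 0.247). The *FGG* to *SERPINC1* ratio had *r* = −0.77 (permutation *p* = 0.00094, adjusted 0.00313, rho = −0.79, permutation *p* = 0.00132), with −0.84 in CON, −0.85 in RES and −0.78 without the 2 livers. The *SERPINC1* to *VTN* ratio had *r* = −0.77 (permutation *p* = 0.00134, adjusted 0.00335, rho = −0.69, permutation *p* = 0.00826), with −0.58 in CON, −0.88 in RES and −0.72 without the 2 livers, and it turned to 0.26 within CON without fetus 2 (exact permutation *p* = 0.689). The other 2 ratios had opposite signs in the diets, so no pooled relation is drawn. For *FGA* to *SERPINC1*, *r* was 0.87 in CON (exact permutation *p* = 0.0228) and −0.33 in RES (exact permutation *p* = 0.471). For *FGA* to *VTN* it was 0.87 in CON (exact permutation *p* = 0.00972) and −0.71 in RES (exact permutation *p* = 0.0692). Without CON fetus 2 the CON values were 0.49 and 0.62 (exact permutation *p* = 0.340 and 0.188). Without RES fetus 1 the RES values were 0.45 and −0.40 (exact permutation *p* = 0.375 and 0.424).

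**Figure D3:**
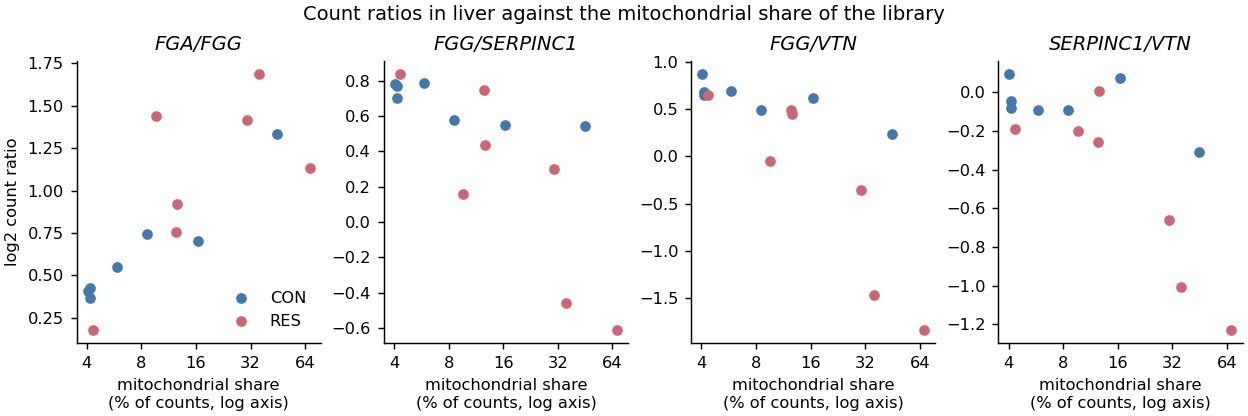
Log2 count ratio of 4 pairs of genes against the share of counts on 12 mitochondrially encoded genes (percent, log axis), with 1 point per liver, CON in blue and RES in red. The *FGA* to *FGG* ratio is higher in livers with a higher share (*r* = 0.81), and the other 3 ratios are lower (*r* between −0.79 and −0.77).

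For the levels of *VTN*, *SERPINC1* and *FGA*, the relation to the mitochondrial share differed in sign between diets. For *VTN*, *r* was −0.85 in CON (exact permutation *p* = 0.0270) and 0.80 in RES (exact permutation *p* = 0.0337), and for *SERPINC1* it was −0.85 in CON (exact permutation *p* = 0.0391) and 0.68 in RES (exact permutation *p* = 0.0964). For *FGA* it was −0.45 in CON (exact permutation *p* = 0.300) and 0.48 in RES (exact permutation *p* = 0.274), and the CON value was 0.0035 without CON fetus 2. No pooled relation is drawn from these opposite signs. *FGG* fell with the share over the 14 livers (*r* = −0.66, permutation *p* = 0.0122, adjusted 0.0244, rho = −0.71, permutation *p* = 0.00528), with −0.92 in CON (exact permutation *p* = 0.00635), −0.29 in RES (exact permutation *p* = 0.525) and −0.56 without RES fetus 1 and CON fetus 2. Without CON fetus 2 the values within CON were −0.47 for *VTN* (exact permutation *p* = 0.360), −0.35 for *SERPINC1* (exact permutation *p* = 0.535) and −0.74 for *FGG* (exact permutation *p* = 0.103), and without RES fetus 1 the value of *VTN* within RES was 0.65 (exact permutation *p* = 0.163). For *SERPINC1* within RES it was 0.47 without RES fetus 1 (exact permutation *p* = 0.353). For *VTN*, *SERPINC1* and *FGG* the signs within each diet were kept without these livers while none of these relations passed the test, and the difference between diets was not tested.

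Levels of *SERPINC1* and *VTN* were the most closely related of the 6 pairs over the 14 livers (*r* = 0.88 on log2 CPM, permutation *p* = 6e-05, adjusted over the 6 pairs 0.00036, rho = 0.97, permutation *p* = 1e-05, the smallest that the resampling can give). The relation held within CON (*r* = 0.96, exact permutation *p* = 0.00159) and within RES (*r* = 0.98, exact permutation *p* = 0.000794), and *r* was 0.85 without CON fetus 2 and RES fetus 1. It was 0.82 within CON without fetus 2 (exact permutation *p* = 0.0361) and 0.96 within RES without fetus 1 (exact permutation *p* = 0.00556). *FGA* and *SERPINC1* had *r* = 0.64 (permutation *p* = 0.0154, adjusted 0.0461, rho = 0.80, permutation *p* = 0.00095), with 0.75 in CON, 0.61 in RES and 0.60 without RES fetuses 33 and 55. With values centred within each diet the adjusted permutation *p* of that pair was 0.0742. *FGA* and *VTN* had *r* = 0.60 (permutation *p* = 0.0299, adjusted 0.0598, rho = 0.75, permutation *p* = 0.0027).

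*FGG* was related to *SERPINC1* and *VTN* within CON, while its relations within RES did not pass the test. Its *r* with *SERPINC1* was 0.98 in CON (exact permutation *p* = 0.00119) and 0.34 in RES (exact permutation *p* = 0.448), and its *r* with *VTN* was 0.95 in CON (exact permutation *p* = 0.00655) and 0.14 in RES (exact permutation *p* = 0.758). Over all 14 livers these were 0.49 (permutation *p* = 0.0746, rho = 0.48, permutation *p* = 0.0869) and 0.08 (permutation *p* = 0.778, rho = 0.45, permutation *p* = 0.112). *FGA* and *FGG*, neighbours on the chromosome and chains of a single protein, had *r* = 0.36 over the 14 livers (permutation *p* = 0.207, rho = 0.47, permutation *p* = 0.0908), with 0.71 in CON (exact permutation *p* = 0.0433) and 0.36 in RES (exact permutation *p* = 0.446). CON fetus 2 was lowest in CON for all 4 genes, and without it *FGG* had *r* = 0.83 with *SERPINC1* (exact permutation *p* = 0.0194), 0.75 with *VTN* (exact permutation *p* = 0.0889) and 0.63 with *FGA* (exact permutation *p* = 0.172) within CON. Within RES without fetus 1, *FGG* had *r* = 0.52 with *SERPINC1* (exact permutation *p* = 0.242) and 0.29 with *VTN* (exact permutation *p* = 0.532). Over both diets without RES fetus 1 these were 0.69 and 0.28. The differences between diets were not tested. On CPM from total counts *r* was 0.87 for *FGA* and *FGG* (adjusted permutation *p* = 0.00048) and 0.89 for *FGG* and *SERPINC1* (adjusted permutation *p* = 0.00042), so both depended on the scaling. These totals hold the mitochondrial counts, 4.04% to 67.7% of a liver library, and divide both genes of a pair alike. The part of this in the 2 values was not tested.

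The genes whose log2 CPM followed each of the 4 most closely over the 14 livers were taken from 4484 retained genes with a symbol, and these values are descriptions. The 5 nearest to *FGA* were *AQP8* (*r* = 0.87), a water channel, *F11R* (0.86), a junctional adhesion protein, *FCGR2A* (0.81), an Fc receptor, *LENG9* (0.81) and *PBLD* (0.80). Among those nearest to *FGG* were *C8B* (0.94), a complement component of the membrane attack complex, *GLUD1* (0.93), glutamate dehydrogenase, *OIT3* (0.92) and *GGH* (0.92), a folate hydrolase. *SERPINC1* was nearest to *LRG1* (0.98), a plasma glycoprotein, *SERPINF1* (0.97), a secreted serpin, *DNAJC1* (0.95), *SERPINA6* (0.93), the cortisol carrier of plasma, and *KIF12* (0.93). *VTN* was nearest to *SERPING1* (0.98), the inhibitor of complement C1, *SERPINA1* (0.97), the inhibitor of neutrophil elastase, *BSG* (0.97), *BCAM* (0.97), a laminin receptor, and *APOE* (0.97), an apolipoprotein. *VTN* ranked 22nd for *SERPINC1* and *SERPINC1* ranked 45th for *VTN*, whereas *FGG* ranked 661st for *FGA* and *FGA* ranked 1433rd for *FGG*.

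Other genes of haemostasis were taken as 7 lists of 54 genes, of which 34 could be paired with a row, the 4 genes included. The median level was highest in liver for 27 of the 34 and highest in muscle for the other 7, among them *PLAT* (7.63 CPM in liver and 74.1 in muscle), which encodes tissue plasminogen activator, and *ITGB1* (97.1 and 783), an integrin chain that pairs with many alpha chains. For 21 genes the liver median was at least 100-fold that of both other tissues. *HNF4A*, a transcription factor of hepatocytes, had a liver median of 37.8 CPM and 0 counts in all 28 cerebrum and muscle libraries.

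In liver all 34 genes were tested and none was called by edgeR or by DESeq2. The 34 were split evenly, with 17 higher and 17 lower in RES and a median log2 fold change of 0.01, against −0.03 over all genes. An unadjusted *p* under 0.05 was met by 10 of them (29.4%), against 24.1% of all liver genes. Of the 10 procoagulant factors 8 were higher in RES, against 47.9% of all liver genes, but on total counts without TMM factors 3 were, against 21.3% of all genes. The log2 fold change was 0.96 for *F10* (SE 0.34), 0.94 for *F11* (SE 0.33) and 0.82 for *F7* (SE 0.26), the protease that starts coagulation with tissue factor, and it lay between 0.04 and 0.24 for *F5*, *VWF*, *KLKB1*, *F12* and *F8*. *F9*, which encodes the factor missing in haemophilia B, was at −1.39 (SE 0.65). Of the 5 anticoagulants, *SERPINC1* among them, 4 were higher in RES, and 1 on total counts, against the same 47.9% and 21.3% of all genes. *SERPIND1*, the thrombin inhibitor heparin cofactor II, was at 0.70 (SE 0.27), *PROZ*, which encodes protein Z, at 0.47 (SE 0.25) and *SERPINA5*, the protein C inhibitor, at 0.26 (SE 0.18), while *SERPINA10*, an inhibitor of activated factor X, was at −0.70 (SE 0.32).

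Of the 7 genes of fibrinolysis and its control, 5 were lower and 2 higher in RES, where 47.9% of all liver genes were higher. On total counts 6 were lower and 1 higher, where 21.3% of all genes were higher. *PLG*, the precursor of plasmin, was at −0.55 (SE 0.32), and *HRG*, which binds plasminogen and heparin, was at 0.56 (SE 0.18). Of the 3 genes for vitronectin and its receptor chains, *ITGB1* was at −1.02 (SE 0.35) and *ITGB5*, which pairs with the alpha V chain to bind vitronectin, at −0.01 (SE 0.13). The third gene of fibrin formation, *F13B*, which encodes the carrier subunit of factor XIII, was at −0.30 (SE 0.20). *MCFD2*, which helps factors V and VIII leave the endoplasmic reticulum, was at −0.64 (SE 0.22), and *VKORC1* of the vitamin K cycle was at 0.04 (SE 0.16). Among the transcription factors, the log2 fold change was −0.44 for *HNF4A* (SE 0.35), −0.20 for *FOXA3* (SE 0.15) and −0.12 for *STAT3* (SE 0.15). None of these differences passed the adjustment in edgeR, whose lowest adjusted *p* in liver was 0.184.

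**Figure D4:**
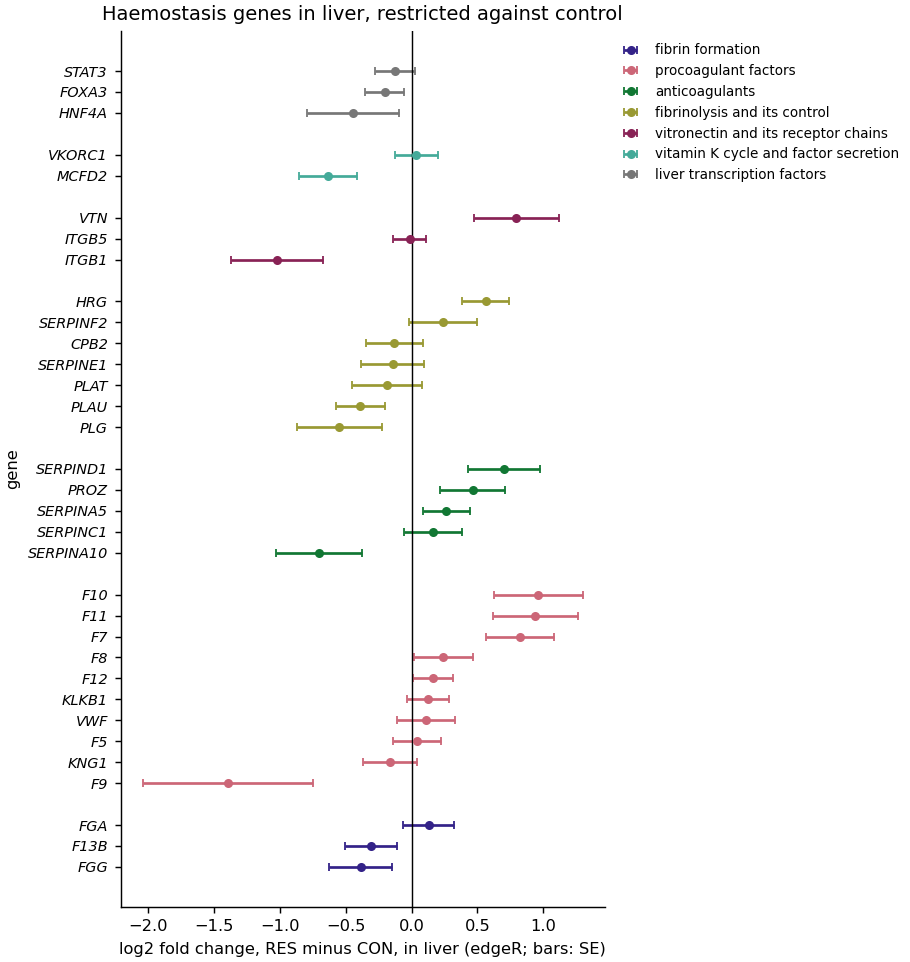
Log2 fold change (RES against CON) in liver of haemostasis genes with a row, grouped by list, with points as edgeR estimates and bars as SE (7 livers per diet). *VTN*, at 0.80, follows *F10*, *F11* and *F7* at the upper end and *FGG* is at −0.39, and no gene shown passed the adjusted threshold.

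In the cerebrum and muscle the 4 genes were present only as traces, which were not spread evenly. In the cerebrum, *FGA* had 72 counts over the 14 libraries, of which 28 were in RES fetus 1, 19 in RES fetus 33, 11 in CON fetus 2 and 9 in RES fetus 25, and it was at 0 in 8 libraries. *FGG* had 52 counts, with 22, 16, 4 and 7 in the same libraries, and was at 0 in 7. *VTN* had 27 counts, with 15, 5, 4 and 2 in these libraries, and was at 0 in 9. A count of 0 allows up to 3 counts, which is 0.564 CPM in a cerebrum library of median depth and 0.452 CPM in a muscle library.

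*SERPINC1* was distributed differently. It had 226 counts in the cerebrum and was found in all 14 libraries, from 3 in CON fetus 23 to 44 in RES fetus 1, with 24 in RES fetuses 33 and 55. In muscle it had 208 counts, again in all 14 libraries, from 9 to 23. It made up 16.2% of the counts of the 4 genes in liver (95% exact binomial interval 16.1% to 16.3%), 59.9% in the cerebrum (54.8% to 64.9%) and 73.8% in muscle (68.2% to 78.8%). The intervals cover counting error only. These pooled shares join unlike libraries. In the cerebrum *SERPINC1* had 44 counts against 65 of *FGA*, *FGG* and *VTN* together in RES fetus 1. It had 24 against 40 in RES fetus 33, 14 against 19 in CON fetus 2 and 11 against 18 in RES fetus 25. In the other cerebrum libraries it had 3 to 24 against 0 to 3. In muscle it had 14 against 29 in RES fetus 70, and 9 to 23 against 10 or fewer elsewhere.

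In muscle, 29 of the 74 counts of *FGA*, *FGG* and *VTN* were in RES fetus 70 and 10 in CON fetus 54, and the other 12 libraries had 5 or fewer each. *FGA* had 39 counts, with 18 in RES fetus 70 and 7 in CON fetus 54. *VTN* had 18 counts, with 7 in RES fetus 70, and *FGG* had 17, with 4 in that library. *SERPINC1* in RES fetus 70 had 14 counts, within its range in the other muscle libraries.

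The libraries with most counts of *FGA*, *FGG* and *VTN* in each tissue, RES fetus 1 in cerebrum and RES fetus 70 in muscle, also had the highest counts of the hepatocyte genes *ALB* and *AFP*. Scaled to the library total, however, the cerebrum of RES fetus 33 was above that of RES fetus 1 for *FGA* (4.26 against 3.70 CPM), *FGG* (3.59 against 2.90 CPM) and *AFP* (107 against 99.1 CPM), and below it for *VTN* (1.12 against 1.98 CPM) and *ALB* (58.7 against 75.1 CPM). *ALB* had 569 counts and *AFP*, which encodes alpha-fetoprotein, the fetal homologue of albumin, had 751 in the cerebrum of RES fetus 1, and they had 262 and 476 in RES fetus 33. In CON fetus 2 they had 47 and 84, and in RES fetus 25 they had 73 and 78. In the other 10 cerebrum libraries *ALB* had 18 to 61 counts and *AFP* had 0 to 46. In muscle *ALB* and *AFP* had 152 and 269 counts in RES fetus 70 and 88 and 143 in CON fetus 54, against 13 to 48 and 0 to 40 in the other 12. Over 11 hepatocyte markers (*TTR* left out, since the choroid plexus also makes it), the median level as a percent of the mean liver level was 0.338% in the cerebrum of RES fetus 1, and the median over the 4 genes was 0.265%. In RES fetus 33 these were 0.325% and 0.305%, and in the muscle of RES fetus 70 they were 0.175% and 0.143%. The order of these medians varied among the other libraries. The marker and gene medians were 0.0689% and 0.134% in the cerebrum of CON fetus 2 and 0.0802% and 0.149% in that of RES fetus 25. In the muscle of CON fetus 54 they were 0.0528% and 0.0573%. Elsewhere the genes were below the markers, as in the cerebrum of RES fetus 55 (0.0290% and 0.0172%) and the muscle of CON fetus 2 (0.0164% and 0.0066%). Whether liver RNA in these libraries accounts for the traces was not tested.

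**Figure D5:**
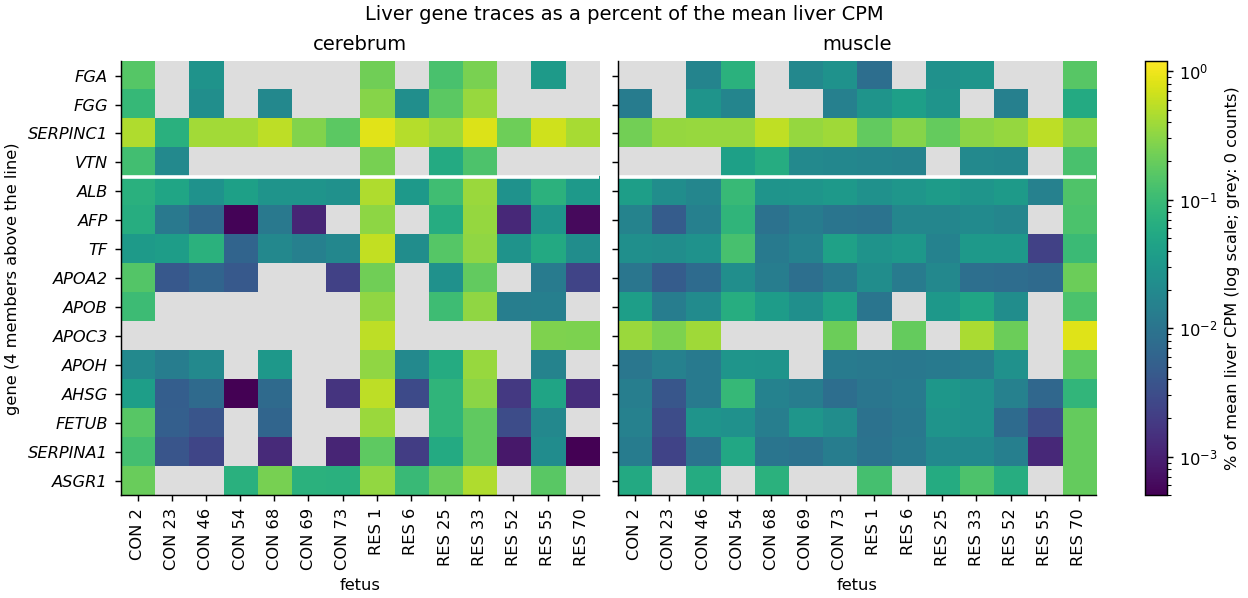
Level of the 4 genes (above the white line) and of 11 hepatocyte markers in each cerebrum and muscle library, as a percent of the mean liver CPM on a log colour scale, with grey for 0 counts. Within each tissue, *FGA*, *FGG* and *VTN* are highest in the libraries where *ALB* and *AFP* are highest (RES fetuses 1 and 33 in cerebrum, RES fetus 70 in muscle), whereas the *SERPINC1* row is coloured in all 28 libraries.

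The traces were compared between diets with exact two-sided permutation tests on CPM, adjusted over 8 tests, and none passed. In the cerebrum *SERPINC1* was at 2.24 ± 1.01 CPM in CON and 3.76 ± 1.91 in RES (SD, *n* = 7 each, exact permutation *p* = 0.0851, adjusted *p* = 0.404), and the difference was 0.96 without RES fetus 1. *FGA* had means of 0.445 and 1.59 (exact permutation *p* = 0.241, adjusted *p* = 0.483) and *FGG* was at 0.194 ± 0.357 and 1.25 ± 1.62 (exact permutation *p* = 0.152, adjusted *p* = 0.404). The *FGA* difference of 1.14 was 0.65 without RES fetus 1 and 0.74 without RES fetus 33, and the *FGG* difference of 1.06 was 0.67 and 0.70 without these fetuses. *VTN* was at 0.183 ± 0.367 and 0.563 ± 0.913, a difference of 0.38 that was 0.07 without RES fetus 1 (exact permutation adjusted *p* = 0.485 over all libraries). In muscle *SERPINC1* was at 2.53 ± 0.648 in CON and 2.12 ± 0.781 in RES (exact permutation adjusted *p* = 0.485). That difference was −0.19 without CON fetus 68, −0.27 without RES fetus 25 and −0.65 without RES fetus 55. Without RES fetus 70 the muscle differences of *FGA* (0.19) and *VTN* (0.06) turned to −0.15 and −0.06, and that of *FGG* went from 0.14 to 0.09. Without CON fetus 54 the *FGA* difference was 0.34.

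*FGA*, *FGG* and *SERPINC1* were retained in the edgeR fit of the cerebrum, the first pair only through the few libraries named above, and *VTN* was not. None was called there, where edgeR called 0 of 15151 genes (0.0%), with 386 (2.55%) at an unadjusted *p* under 0.05, and DESeq2 called 0. *FGG* exceeded 1 CPM only in RES fetuses 1, 25 and 33, so its *p* in this fit is not read. In muscle only *SERPINC1* was retained, and its log2 fold change was −0.34 (SE 0.22, edgeR adjusted *p* = 0.602). In that tissue edgeR called 0 of 14947 genes (0.0%), with 1481 (9.91%) at an unadjusted *p* under 0.05. DESeq2 called 13 of the 6521 genes to which it gave an adjusted *p* (0.199%). *SERPINC1* had no adjusted value in that fit, so DESeq2 could not call it.

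The diet by tissue interaction was tested with edgeR over all 42 libraries, where no gene of 15972 was called (0.0%), with 897 at an unadjusted *p* under 0.05. It is given for *SERPINC1*, the gene of the 4 that was retained in each tissue. Its *F* value was 2.67 (edgeR adjusted *p* = 0.829), and 1.41 without RES fetus 1 (edgeR adjusted *p* = 0.958). *FGA*, *FGG* and *VTN* entered that fit through their liver counts, so no interaction is given for them.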

How the data were processed

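The deposited values are raw read counts per gene. The authors mapped strand-specific paired reads to the bovine genome (ARS-UCD 1.2, Ensembl release 100) with STAR 2.7.3a and took the counts from its gene counting option. The strand column kept is not given in the sources used here. Symbols came from the study's supplementary tables (5119 genes matched). The members and the lists of haemostasis and marker genes were chosen with earlier results of these data known.

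A gene entered a fit unless 80% or more of its libraries had under 1 CPM. Diets were compared with edgeR 4.0.16 (R 4.3.3) using TMM factors, quasi-likelihood tests, a term for fetal sex and Benjamini-Hochberg adjustment over all genes of the fit, and DESeq2 1.42.0 served as an alternative. Log2 CPM used a prior count of 1, and log2 ratios a pseudocount of 0.5. Exact permutation tests used all splits of 14 fetuses into 7 and 7, and correlations used 100000 resamples (scipy 1.17.1). The edgeR step was tested on simulated data. Named were the 4 genes, the listed haemostasis and marker genes, and the 5 genes most like each of the 4, apart from 2 genes that are not reported here. No 2 libraries were duplicates. Other settings were size factors of DESeq2, a model without sex, no or a stricter filter, omission of mitochondrial genes, males only, other correlation measures and omission of each fetus. After seeing the data, a mitochondrial share covariate, a limit of 25% on that share and scaling to total counts without TMM factors were added.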

Additional observations from a re-analysis of the deposited data

Results flagged for a closer look

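Within groups of 7 libraries, the value of 1 fetus lay far from the other 6 in 10 of 36 groups, by Dixon's ratio of gap to range at its 95% critical value, where chance alone gives about 1 in 20 for normally distributed, independent groups. That rate does not apply to the 6 of these 10 groups that hold cerebrum or muscle traces of a few counts, many at 0, and the ratio groups reuse the livers of the single genes. CON fetus 2 accounted for 7 of these. In its liver, *FGG* was at 9.02 log2 CPM (median of the CON livers 10.11) and *SERPINC1* at 8.48 (median 9.33), and its log2 ratios of *FGA* to *FGG* (1.33, median 0.55) and *FGA* to *SERPINC1* (1.87, median 1.25) were the highest of CON. In its cerebrum, *FGA* was at 2.68 CPM, *FGG* at 0.976 and *VTN* at 0.976, where the CON median was 0 for each. In muscle, *FGA* was at 1.21 CPM in CON fetus 54 (median 0.284) and at 2.50 in RES fetus 70 (median 0.147), and *VTN* was at 0.973 in RES fetus 70 (median 0.147). The liver of CON fetus 2 had a mitochondrial share of 44.9%, and the muscle of RES fetus 70 and of CON fetus 54 had the highest *ALB* counts of that tissue (152 and 88); their part in these values was not tested.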

How the results depend on the processing

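Among the 10 livers with a mitochondrial share under 25% (a setting chosen after seeing the data), the diet differences of *FGA* (−0.20), *SERPINC1* (−0.37) and *VTN* (−0.21) and those of the *FGA* to *SERPINC1* (0.14) and *FGA* to *VTN* (0.0059) ratios reversed. On total counts without TMM factors, also chosen after seeing the data, the diet differences of *FGA* (−0.26) and *SERPINC1* (−0.37) reversed, with the median of all genes at −0.37. DESeq2 called 86 liver genes where edgeR called 0. The number of liver genes at an unadjusted *p* under 0.05 also depended on the setting. It was 3260 in the main edgeR fit and 3793 in DESeq2. In edgeR it was 1674 on total counts, 1347 without the sex term and 747 with the mitochondrial share as a covariate. Among the 10 livers with a share under 25% it was 922. In males only, ratio differences passed for *FGA* to *FGG* (0.62), *FGG* to *SERPINC1* (−0.63), *FGG* to *VTN* (−1.24) and *SERPINC1* to *VTN* (−0.61). That setting leaves out RES fetuses 55 and 70, whose livers had lower mitochondrial shares than those of RES fetuses 1, 6 and 33. The muscle trace difference of *FGA* reversed in males only (−0.16). On total counts, which hold the varying mitochondrial counts, the correlations of *FGA* with *FGG* (0.87) and of *FGG* with *SERPINC1* (0.89) passed. Spearman's rho passed for *FGA* with *VTN* (0.75), and with values centred by diet *FGA* with *SERPINC1* (0.63) no longer passed. The log2 ratio of liver to cerebrum on total counts was 10.74 for *FGA*, 10.49 for *FGG*, 7.81 for *SERPINC1* and 11.26 for *VTN*, and to muscle 11.94, 12.48, 8.19 and 12.01. On medians it came to 13.89 for *FGA* to muscle and 14.59 for *FGG* to cerebrum, but these medians were under 3 counts, so neither ratio is measurable. The causes were not tested.

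When single fetuses were left out, the liver diet difference ranged from −0.042 to 0.25 for *FGA* and from 0.48 to 1.05 for *VTN*. It ranged from 0.015 to 0.26 for *SERPINC1* and from −0.50 to −0.30 for *FGG*. The ratio differences ranged from 0.33 to 0.58 (*FGA* to *FGG*), −0.12 to 0.084 (*FGA* to *SERPINC1*), −0.59 to −0.24 (*FGA* to *VTN*), −0.58 to −0.34 (*FGG* to *SERPINC1*), −1.07 to −0.66 (*FGG* to *VTN*) and −0.53 to −0.32 (*SERPINC1* to *VTN*). The muscle trace differences ranged from −0.15 to 0.34 CPM (*FGA*) and from −0.063 to 0.12 CPM (*VTN*). With the fetus as a replicate block, the interaction *F* value of *SERPINC1* was 2.39 (edgeR adjusted *p* = 0.910), genes at an unadjusted *p* under 0.05 went from 897 to 563, and no call changed. Traces of a few counts per library limit what the cerebrum and muscle can show.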
